A study of Mus musculus with 8 samples.

Results

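Mitochondrial fatty acid oxidation and ketone body synthesis were followed through 35 genes in bulk RNA sequencing of mouse liver. The genes were chosen by name for their place in the pathway, and all 35 were found among the 52030 named genes of the deposited table. All 35 passed the filter of a mean of at least 1 FPKM over the libraries (a fragment count divided by transcript length and by library size), which left 11268 tested genes. The livers came from wild-type mice fed CDAHFD, a high-fat diet with defined L-amino acids and without choline that produces steatohepatitis, a fatty and inflamed liver. Every mouse had received an intravenous injection of extracellular vesicles from the blood of human volunteers. In the group RIC_hEV (4 libraries) the volunteers had undergone remote limb ischemic conditioning, in which blood flow to a limb is briefly interrupted. In the group ctr_hEV (4 libraries) they had undergone a sham procedure. The diet, the genotype and an injection of human vesicles are shared by both groups, so the labelled difference between them is the kind of vesicle. The labels give no age, dose, time or animal identifier, and p-values therefore measure the spread between these 8 libraries, which may be technical.

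Hepatocytes burn fatty acids inside mitochondria. A fatty acid is first bound to coenzyme A, then passed through the inner membrane as a carnitine ester by the carnitine shuttle, and shortened step by step in the beta-oxidation spiral, with electrons leaving through the electron transfer flavoprotein. In the liver much of the resulting acetyl-CoA becomes ketone bodies, the fuel that the liver exports during fasting. The nuclear receptor PPAR alpha, bound to DNA with its partner RXR, switches on many of these genes when fatty acids accumulate.

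The DNA element bound by PPAR alpha is a direct repeat of AGGTCA with a single base between both copies, called DR1 (AGGTCA, any base, AGGTCA). Since this receptor switches on many genes of the pathway, the 250 bases before each RefSeq start (GRCm38.p6) were searched for DR1 on both strands. Of the 35 members, 29 were matched in the promoter table. No member held an exact match, which 0.0407% of 27025 genes did. With up to 2 mismatches allowed, 4 members held a match (13.8% of 29), against 3.72% of all genes. These 4 sites are shown because they are the places where letters close to DR1 occur near the RefSeq start of a member. Each is printed 5′ to 3′ on the strand of its gene, with the 13 bases of the match in capitals. The matches in Fabp1 and Etfa lie on the opposite strand of the gene and therefore read as the reverse complement.
Fabp1: acaatcacTGACCTATGGCCTatatctga
Echs1: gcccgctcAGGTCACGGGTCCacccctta
Etfa: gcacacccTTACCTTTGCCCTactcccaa
Creb3l3: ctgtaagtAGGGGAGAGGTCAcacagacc
The stretches lie at chr6:71199804-71199832 (Fabp1, plus strand), chr7:140116484-140116512 (Echs1, minus strand), chr9:55512300-55512328 (Etfa, minus strand) and chr10:81092780-81092808 (Creb3l3, minus strand). The match in Fabp1 has 1 mismatch and the other 3 have 2. In GENCODE M21 the Fabp1 stretch includes 6 exon bases of Fabp1 and the Creb3l3 stretch 2 of Creb3l3. Creb3l3 there runs from 81084324 to 81098874 on the minus strand, so its stretch lies inside the gene and not before its GENCODE 5′ end. The Echs1 stretch lies in Paox with 0 exon bases, and the Etfa stretch lies outside annotated genes. AGGTCA alone stood in 6 of the 29 members (20.7%) and in 15.8% of all genes; the members were Cpt1a, Fabp1, Acadvl, Acadm, Echs1 and Creb3l3, and each DR1 match above that holds AGGTCA intact is also counted here. A match describes letters in a window and shows no binding.

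A second stretch is shown because it joins a pair of members. Hadha and Hadhb encode the alpha and beta subunits of the mitochondrial trifunctional protein and lie head to head on chromosome 5, Hadha on the minus strand (30118304 to 30155162) and Hadhb on the plus strand (30155248 to 30184593; GENCODE M21, mm10). Only 85 bases separate their annotated 5′ ends. They are given on the plus strand, with the GC box GGGCGG in capitals.
Hadha-Hadhb: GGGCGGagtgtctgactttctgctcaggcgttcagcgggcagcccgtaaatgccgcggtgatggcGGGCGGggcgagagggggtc
The stretch lies at chr5:30155163-30155247 and holds 2 GC boxes. In the 250 bases before the start, 16 of 29 members held a GC box on either strand (55.2%), against 35.4% of all genes. Hadha and Hadhb are both among the 16, and windows of genes that lie so close can hold the same boxes. The shares over all genes, here and for DR1 and AGGTCA, were not limited to genes expressed in liver. The difference in shares was not tested.

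The libraries can be summarised briefly. A rough estimate of depth, with annotated exon lengths assumed, was 19300000 to 28500000 fragments per library. The members together took between 1.17% and 1.83% of all FPKM. The tissue label held: the 10 hepatocyte markers summed to 34010 to 51668 FPKM in ctr_hEV and 42546 to 49233 in RIC_hEV. Tissues that burn or store fat and could adhere to a liver piece were close to absent, with Adipoq of adipocytes and Myh4, Mb and Tnnt3 of muscle at 0 in all 8 libraries. Libraries ctr_hEV 1 and ctr_hEV 3 stood apart. They held the highest sums of the macrophage markers (1533 and 1218 FPKM, against 637 to 945 in the other libraries), of the stellate cell and fibroblast markers (275 and 213, against 114 to 152) and of the cholangiocyte markers (146 and 108, against 20.2 to 39.0). Most of the cholangiocyte sum came from Spp1 (129 FPKM in ctr_hEV 1 and 97.7 in ctr_hEV 3). Krt19, Krt7, Epcam, Sox9 and Cftr were lower in level and also highest in ctr_hEV 1 and ctr_hEV 3. Heat-shock genes, kept as a sign of handling, summed to 595 to 934 FPKM in ctr_hEV and 900 to 1211 in RIC_hEV, with 9 of 9 higher as fitted. B and plasma cell markers summed to 13.8 to 25.4 FPKM in ctr_hEV and 42.4 to 53.8 in RIC_hEV, mostly from Igkc (means 18.9 and 44.9). Means of Jchain (1.31 and 3.03) and Mzb1 (0.246 and 0.519) were also higher in RIC_hEV. Those of Cd79a (0.318 and 0.319), Cd79b (0.885 and 0.834) and Ms4a1 (0.0537 and 0.0591) were similar in both groups. Of the tested markers, 9 of 10 for hepatocytes were higher as fitted, and 9 of 10 for macrophages, 10 of 10 for stellate cells and fibroblasts, 4 of 4 for cholangiocytes, 4 of 4 for neutrophils and 4 of 5 for red blood cells were lower. Endothelial markers were split (4 higher, 4 lower), as were those of T and NK cells (1 and 1). Of the mitochondrially encoded genes, 12 of 13 were higher. These counts stand beside a background in which 8227 of all 11268 tested genes were lower as fitted and 3041 higher. Neutrophil markers summed to 12.9 to 71.4 FPKM in ctr_hEV and 6.67 to 15.6 in RIC_hEV, and red blood cell markers to 605 and 352 in ctr_hEV 1 and ctr_hEV 3, against 83.4 to 184 in the other libraries. The part of these cells in the values of the members was not tested.

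Across the pathway, most members lay slightly higher in RIC_hEV, and none changed by the test used. The mean was higher in RIC_hEV for 33 of 35 members; Ppara and Acsl5 were the exceptions. No member passed an adjusted p of 0.05 (limma, Benjamini-Hochberg over all tested genes), where 4 of the 11268 tested genes did (0.0355%). At an unadjusted p under 0.05 stood 3 members, all higher (Slc22a5, Acot1 and Eci1), where 2.64% of tested genes were higher at that level. The lowest adjusted p among the members was 0.351 and the highest 0.909. The 4 libraries of RIC_hEV lay above all 4 of ctr_hEV in 2 members, Mlycd and Acadl (5.71%), against 1.31% of all tested genes in that direction and 5.88% in either. In bulk liver, a larger share of hepatocytes and more RNA per hepatocyte cannot be told apart.

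The direction needs the background beside it. The median tested gene had a log2 change of -0.11 between RIC_hEV and ctr_hEV, and 27% of tested genes had a change above 0. Log2 differences below are given relative to that median, with the fitted value, its SE and its p beside them; the p belongs to the fitted value. Relative to the median, all 35 members were higher, with a member median of 0.28 (0.17 as fitted). The fitted values ran from -0.069 to 0.70, and the 95% interval of 32 members included 0. With each library centred on its median, 18 members reached an unadjusted p under 0.05, all higher, where 8.2% of tested genes were higher and 3.88% lower; without centring, 11.4% of tested genes were lower at that level. None passed the adjusted threshold of limma with centring, where 6 tested genes did (0.0532%), and the groups then did not overlap in 8 members, where 4.24% of tested genes were higher without overlap and 6.24% separated in either direction.

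**Figure D1:**
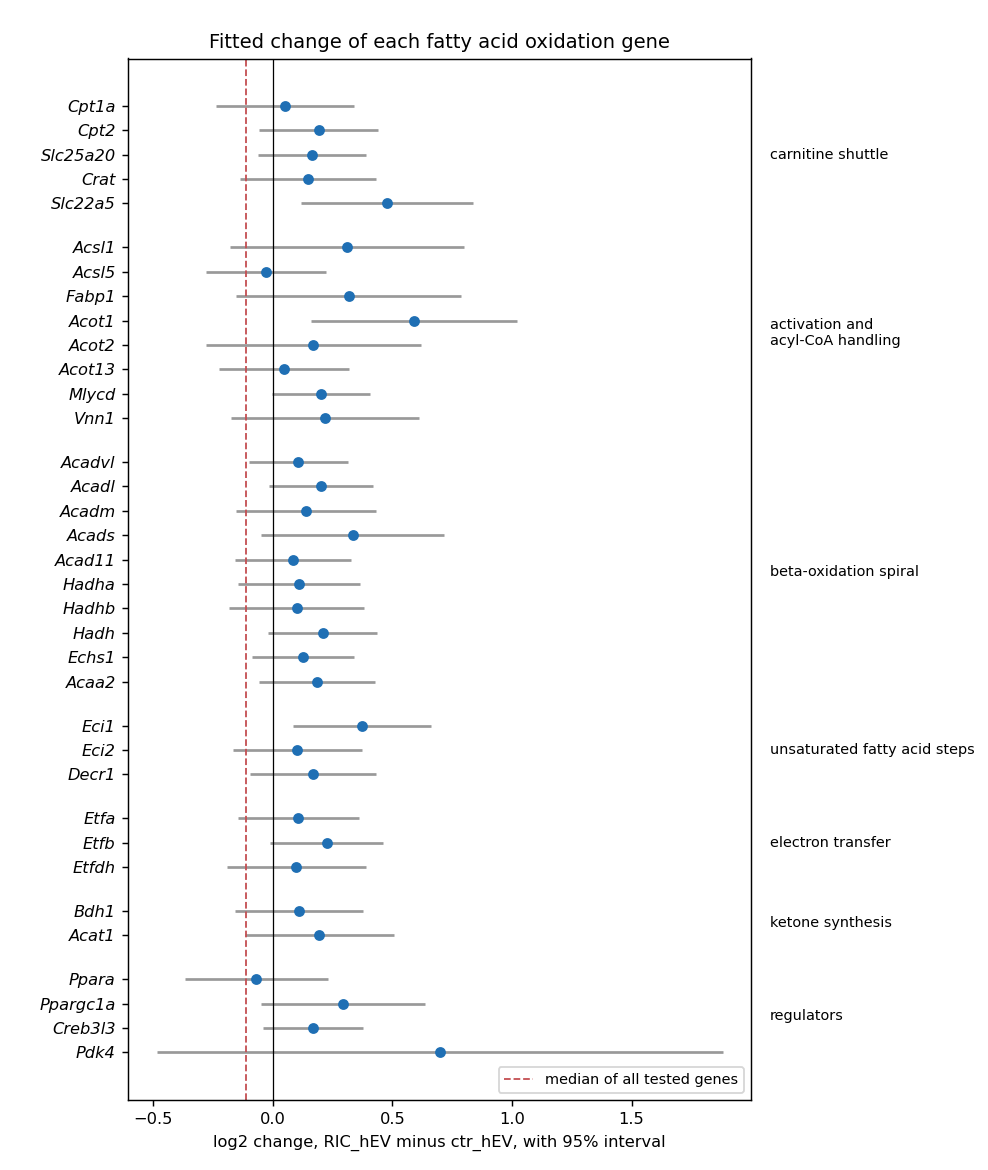
Fitted log2 change of each of the 35 members between RIC_hEV and ctr_hEV on the log2(FPKM + 1) scale, with the 95% interval of limma as bars; the dashed line is the median of all tested genes at -0.11. Most points lie between 0 and 0.5, all lie to the right of the dashed line, and 32 intervals include 0.

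The carnitine shuttle was represented by 5 members, and all 5 were higher as fitted (median 0.27 relative, 0.16 as fitted), none past the threshold. Cpt1a (chromosome 19, 3322334 to 3385733, plus strand; coordinates here and below are from GENCODE M21, mm10) encodes the carnitine palmitoyltransferase of the outer membrane, the gate that malonyl-CoA closes. It measured 143, 113, 126 and 105 FPKM across ctr_hEV 1 to 4, against 142, 123, 106 and 132 across RIC_hEV 1 to 4. The groups overlapped almost fully, with ctr_hEV 1 and RIC_hEV 1 level at the top. Its log2 difference was 0.16 relative to the median gene (0.052 as fitted, SE 0.13, 95% interval -0.24 to 0.34, limma adjusted p = 0.85). The relative value was 0.085 without RIC_hEV 1 and 0.24 without RIC_hEV 3. Behind the gate, the inner-membrane transferase Cpt2 had a mean of 53.4 ± 5.06 FPKM over the controls and 61.2 ± 6.03 over RIC_hEV (SD, n = 4 per group, here and below). The carnitine-acylcarnitine carrier Slc25a20 had a mean of 43.02 ± 2.91 FPKM over the controls and 48.4 ± 4.23 over RIC_hEV, and the carnitine acetyltransferase Crat a mean of 22.01 ± 3.49 FPKM over the controls and 24.4 ± 2.57 over RIC_hEV. Overlap between groups was seen in all 3.

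Slc22a5 encodes OCTN2, the carnitine importer of the plasma membrane (chromosome 11, 53864542 to 53891660, minus strand), and had the lowest p of the shuttle. It measured 28.1, 22.7, 23.2 and 34.04 FPKM across ctr_hEV 1 to 4, against 46.3, 30.8, 40.7 and 34.1 across RIC_hEV 1 to 4. Library ctr_hEV 4 lay among the RIC_hEV values, and the other 3 controls lay below all of them. The relative difference was 0.59 (0.48 as fitted, SE 0.16, limma adjusted p = 0.352). Of its 31-base stretches 37.8% also occur in another annotated gene, mostly Slc22a21, so its level is uncertain. Slc22a21 itself had a mean under the filter.

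Activation and handling of acyl-CoA took in 8 members, of which 7 were higher and 1 lower as fitted (median 0.32 relative, 0.21 as fitted), none past the threshold. Acot1, a thioesterase that frees fatty acids from acyl-CoA in the cytosol (chromosome 12, 84009490 to 84018371, plus strand), had the lowest p of all 35 members. It measured 34.5, 25.7, 25.1 and 32.1 FPKM across ctr_hEV 1 to 4, against 55.1, 30.4, 56.1 and 40.7 across RIC_hEV 1 to 4. Only RIC_hEV 2, the lowest of its group, lay inside the control range. Against the median gene, the difference was 0.70 (0.59 as fitted, SE 0.19, 95% interval 0.16 to 1.02, limma adjusted p = 0.351).

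The neighbouring paralog Acot2 encodes the mitochondrial form of the same enzyme (chromosome 12, 83987861 to 83993873, plus strand). It measured 105, 65.1, 80.7 and 74.6 FPKM across ctr_hEV 1 to 4, against 105, 64.4, 121 and 81.7 across RIC_hEV 1 to 4. Here the groups overlapped throughout (limma adjusted p = 0.671). The ratio of Acot1 to Acot2 was 0.329, 0.395, 0.310 and 0.430 in ctr_hEV 1 to 4 and 0.527, 0.473, 0.465 and 0.499 in RIC_hEV 1 to 4. This ratio did not overlap between groups (0.366 ± 0.0559 and 0.491 ± 0.0281, SD, n = 4 per group). It was chosen after the values were seen and is given without a test. The genes share sequence with their cluster: 22.7% of the 31-base stretches of Acot1 and 37.3% of those of Acot2 occur in another gene, so the authors' counting could have split their reads.

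Mlycd encodes malonyl-CoA decarboxylase, which removes the inhibitor of Cpt1a (chromosome 8, 119394878 to 119411102, plus strand). It measured 27.5, 29.7, 26.5 and 29.5 FPKM across ctr_hEV 1 to 4, against 34.5, 32.2, 30.7 and 33.4 across RIC_hEV 1 to 4. Every RIC_hEV library lay above every control, by a small margin: the highest control was 29.7 and the lowest RIC_hEV library 30.7 FPKM. Its log2 difference relative to the median gene was 0.31 (0.20 as fitted, SE 0.092, limma adjusted p = 0.359). The groups overlapped on a TPM scale.

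The other members of this group varied more between libraries than between groups. Fabp1, the fatty acid binding protein of liver cytosol and the most abundant member, ranged from 1996 to 4306 FPKM, lowest in ctr_hEV 1 and highest in RIC_hEV 3. It had a mean of 2451 ± 619.8 FPKM over the controls and 3070.0 ± 865 over RIC_hEV, with limma adjusted p = 0.466. Vnn1, a pantetheinase and known target of PPAR alpha, was likewise lowest in ctr_hEV 1 at 44.5 and highest in RIC_hEV 3 at 85.6 FPKM. The acyl-CoA synthetase Acsl5 had a mean of 58.8 ± 4.51 FPKM over the controls and 57.8 ± 6.73 over RIC_hEV, and the thioesterase Acot13 a mean of 54.3 ± 5.48 FPKM over the controls and 56.2 ± 7.41 over RIC_hEV.

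Acsl1, the main long-chain acyl-CoA synthetase of liver, measured 33.03, 37.3, 32.2 and 66.3 FPKM across ctr_hEV 1 to 4, against 60.5, 44.4, 56.7 and 41.98 across RIC_hEV 1 to 4. Library ctr_hEV 4 held the highest value of all 8 and the other 3 controls lay below every RIC_hEV library. With all libraries the relative difference was 0.42 (0.31 as fitted, SE 0.22, limma adjusted p = 0.486).

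**Figure D2:**
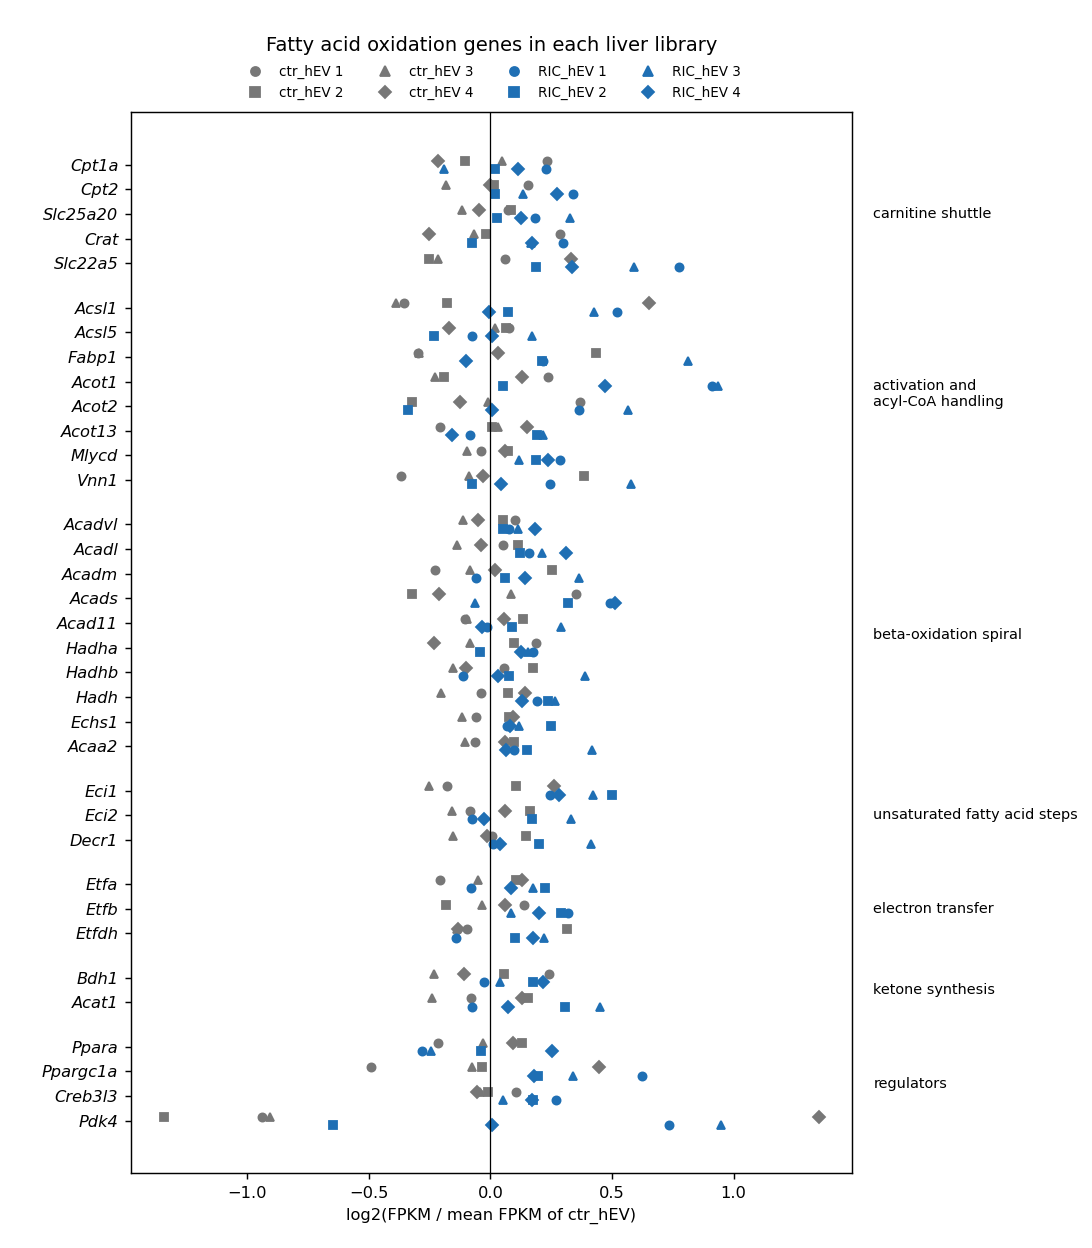
Each member in each library as log2 of its FPKM over the mean of ctr_hEV; grey symbols (upper row of each gene) are ctr_hEV and blue symbols (lower row) RIC_hEV, with the symbol shape giving the replicate number. Only in Mlycd and Acadl do all blue symbols lie right of all grey ones, and Pdk4 has the widest spread.

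The beta-oxidation spiral was covered by 10 members and all 10 were higher as fitted (median 0.24 relative, 0.13 as fitted), none past the threshold. Acyl-CoA dehydrogenases open each round, with different enzymes for different chain lengths. Acadl, the long-chain enzyme (chromosome 1, 66830839 to 66863277, minus strand), measured 179, 187, 157 and 168 FPKM across ctr_hEV 1 to 4, against 193, 187, 199.7 and 214 across RIC_hEV 1 to 4. The lowest RIC_hEV value, 187.4, was just above the highest control, 186.8 FPKM. The relative difference was 0.31 (0.20 as fitted, SE 0.10, 95% interval -0.017 to 0.42, limma adjusted p = 0.37). With quantile normalization or on a TPM scale the groups overlapped.

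The other dehydrogenases overlapped between groups. Acadvl, for very long chains, had a mean of 151 ± 10.1 FPKM over the controls and 163 ± 6.48 over RIC_hEV and the smallest relative spread of all members, a coefficient of variation of 6.39% over 8 libraries. Of its exon bases 42.9% overlap Dvl2 on the opposite strand, and with no strand setting stated their reads cannot be told apart. Acadm, for medium chains, had a mean of 142 ± 20.5 FPKM over the controls and 157 ± 19.9 over RIC_hEV. Acads, for short chains, measured 71.6, 44.9, 59.5 and 48.5 FPKM across ctr_hEV 1 to 4, against 78.9, 70.1, 53.7 and 80.1 across RIC_hEV 1 to 4. Medium-chain and short-chain enzymes did not follow each other: ctr_hEV 1 had the lowest Acadm of all libraries and the highest Acads of the controls, while RIC_hEV 3 had the highest Acadm and the lowest Acads of its group. The ratio of Acads to Acadm accordingly ran from 0.264 to 0.589, with overlapping groups. Acad11, a further acyl-CoA dehydrogenase, had a mean of 56.4 ± 4.599 FPKM over the controls and 59.97 ± 6.32 over RIC_hEV.

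Hadha and Hadhb, whose shared upstream stretch is printed above, carry out the remaining steps on long chains. Hadha measured 79.3, 74.3, 65.6 and 59.2 FPKM across ctr_hEV 1 to 4, against 78.5, 67.5, 77.5 and 76.03 across RIC_hEV 1 to 4. Its highest value was in ctr_hEV 1 and its lowest in ctr_hEV 4, so the RIC_hEV libraries lay inside the control range. Against the median gene, the difference was 0.22 (0.11 as fitted, SE 0.12, limma adjusted p = 0.622). Hadhb measured 61.4, 66.9, 53.2 and 55.2 FPKM across ctr_hEV 1 to 4, against 54.7, 62.5, 77.4 and 60.5 across RIC_hEV 1 to 4. The FPKM ratio of Hadha to Hadhb was 1.177 ± 0.102 in ctr_hEV and 1.193 ± 0.193 in RIC_hEV (SD, n = 4 per group), lowest in RIC_hEV 3 and highest, at 1.43, in RIC_hEV 1. The ratio therefore varied more between libraries of a group than between groups. Of the 31-base stretches of Hadhb 23.3% occur in another gene, mostly the gene model Gm13910.

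Shorter chains use separate enzymes. The enoyl-CoA hydratase Echs1 had a mean of 24.5 ± 1.74 FPKM over the controls and 26.8 ± 1.58 over RIC_hEV, and the hydroxyacyl-CoA dehydrogenase Hadh a mean of 77.01 ± 7.84 FPKM over the controls and 88.9 ± 3.62 over RIC_hEV. Hadh was above 84 FPKM in every RIC_hEV library, and ctr_hEV 4 at 85.0 FPKM kept the groups from separating. With quantile normalization or on a TPM scale the groups did not overlap for Hadh. In either direction, 5.01% and 6.07% of tested genes separated under these settings. Acaa2, the thiolase that closes each round, was the most abundant enzyme of the spiral, with a mean of 528 ± 35.2 FPKM over the controls and 602 ± 70.1 over RIC_hEV. Its highest value was in RIC_hEV 3 (705 FPKM) and its lowest in ctr_hEV 3 (491). None of these 3 passed (limma adjusted p = 0.508, 0.371 and 0.426).

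Unsaturated fatty acids need extra enzymes that move or remove double bonds, and all 3 members of this kind were higher as fitted (median 0.28 relative, 0.17 as fitted), none past the threshold. Eci1, an enoyl-CoA isomerase (chromosome 17, 24426641 to 24439348, plus strand), measured 51.4, 62.5, 48.8 and 69.8 FPKM across ctr_hEV 1 to 4, against 68.9, 82.3, 77.9 and 70.6 across RIC_hEV 1 to 4. Library ctr_hEV 4 was again the control that reached the RIC_hEV range, above RIC_hEV 1. Its log2 difference relative to the median gene was 0.48 (0.37 as fitted, SE 0.13, limma adjusted p = 0.352). The second isomerase Eci2 had a mean of 47.2 ± 4.74 FPKM over the controls and 50.9 ± 6.74 over RIC_hEV, and the dienoyl-CoA reductase Decr1 a mean of 83.2 ± 7.16 FPKM over the controls and 93.95 ± 12.5 over RIC_hEV, both with overlap.

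Electron transfer from the dehydrogenases to the respiratory chain was covered by 3 members, all higher as fitted (median 0.22 relative, 0.11 as fitted) and none past the threshold. Without ctr_hEV 1 this relative median was 0.14. Etfb, the beta subunit of the flavoprotein (chromosome 7, 43444083 to 43457800, plus strand), had the lowest p of the 3. It measured 169, 135, 149.7 and 159.7 FPKM across ctr_hEV 1 to 4, against 191, 188, 162 and 176 across RIC_hEV 1 to 4. Library ctr_hEV 1 lay inside the RIC_hEV range, and RIC_hEV 3 was the lowest of its group. The relative difference was 0.34 (0.23 as fitted, SE 0.11, limma adjusted p = 0.365). The gene model Gm45233 covers 53.0% of the exon bases of Etfb on the same strand, so its level is uncertain.

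Its partner subunit Etfa, with the DR1-like site printed above, measured 109, 136, 122 and 138 FPKM across ctr_hEV 1 to 4, against 119.7, 148, 143 and 134 across RIC_hEV 1 to 4. The ratio of Etfa to Etfb was 0.835 ± 0.149 and 0.764 ± 0.104 (SD, n = 4 per group), with overlap. Etfdh, the dehydrogenase that hands the electrons to ubiquinone (chromosome 3, 79603788 to 79629500, minus strand), measured 47.8, 63.7, 46.5 and 46.6 FPKM across ctr_hEV 1 to 4, against 46.4, 54.8, 59.5 and 57.8 across RIC_hEV 1 to 4. Library ctr_hEV 2 was the highest of all 8, RIC_hEV 1 the lowest, and the other 3 controls lay between 46.5 and 47.8 FPKM. Against the median gene, the difference was 0.21 (0.10 as fitted, SE 0.13, limma adjusted p = 0.701). Relative values were 0.14 without ctr_hEV 1 and 0.33 without ctr_hEV 2.

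Ketone synthesis was represented among the members by Acat1 and Bdh1, both higher as fitted (median 0.26 relative, 0.15 as fitted) and neither past the threshold. Acat1, the thiolase that joins 2 acetyl-CoA (chromosome 9, 53580522 to 53610382, minus strand), measured 124, 146, 111 and 143 FPKM across ctr_hEV 1 to 4, against 124, 162, 179 and 137 across RIC_hEV 1 to 4. Its lowest value was in ctr_hEV 3 and its highest in RIC_hEV 3, with overlap between. Its log2 difference relative to the median gene was 0.31 (0.20 as fitted, SE 0.14, limma adjusted p = 0.49). Bdh1, which turns acetoacetate into beta-hydroxybutyrate (chromosome 16, 31422280 to 31458901, plus strand), measured 104, 91.4, 74.9 and 81.6 FPKM across ctr_hEV 1 to 4, against 86.4, 99.4, 90.3 and 102 across RIC_hEV 1 to 4. Library ctr_hEV 1 was its highest and ctr_hEV 3 its lowest, so the controls enclosed the RIC_hEV libraries. The relative difference was 0.22 (0.11 as fitted, SE 0.12, limma adjusted p = 0.638), and 0.14 relative without ctr_hEV 3.

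**Figure D3:**
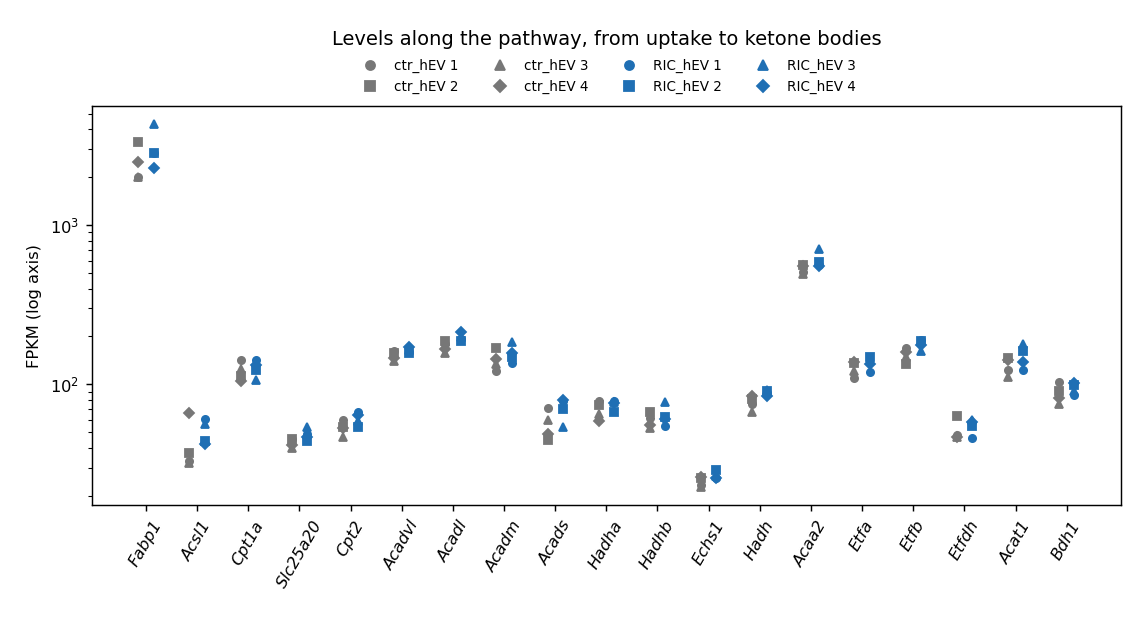
FPKM (log axis) of members from each step in each library, ordered from fatty acid binding to ketone synthesis; grey symbols are ctr_hEV and blue symbols RIC_hEV, with the symbol shape giving the replicate number. Fabp1 and Acaa2 stand above all others in every library, Echs1 is the lowest, and both groups cover nearly the same levels at each step.

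Levels differed far more between steps than between groups. Among the members plotted, Fabp1 and then Acaa2 were highest by FPKM in every library, with Acaa2 at 491 or more, while the dehydrogenases Acadl, Acadvl and Acadm lay between 121 and 214 and overlapped each other. Echs1 was the lowest enzyme of the spiral at 22.6 to 29.1. FPKM depends on the gene length used, which is not stated. Annotated exon length is 8286 bases for Echs1 and 8730 for Hadha when all isoforms are merged, against 1516 for Acaa2, so the order of levels between genes is uncertain.

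The regulators gave 3 members higher and 1 lower as fitted (median 0.34 relative, 0.23 as fitted), none past the threshold. Ppara itself (chromosome 15, 85734983 to 85802819, plus strand) measured 28.8, 36.5, 32.7 and 35.6 FPKM across ctr_hEV 1 to 4, against 27.5, 32.5, 28.2 and 39.9 across RIC_hEV 1 to 4. The RIC_hEV libraries spanned a wider range than the controls, from the lowest value to the highest. Its difference was 0.041 relative and -0.069 as fitted (SE 0.14, 95% interval -0.37 to 0.23, limma adjusted p = 0.802). The sign of the relative value changed with quantile normalization (-0.025) and without a filter (-0.045).

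Ppargc1a, the coactivator PGC-1 alpha (chromosome 5, 51454250 to 51567726, minus strand), was the member with the lowest level. It measured 2.61, 3.58, 3.47 and 4.99 FPKM across ctr_hEV 1 to 4, against 5.63, 4.19, 4.64 and 4.15 across RIC_hEV 1 to 4. Library ctr_hEV 4 was above 3 of the 4 RIC_hEV libraries and the other controls were below all of them. Against the median gene, the difference was 0.40 (0.29 as fitted, SE 0.15, limma adjusted p = 0.392), and 0.25 relative without ctr_hEV 1. Creb3l3, a membrane-bound transcription factor of the fasting liver, had a mean of 123 ± 6.30 FPKM over the controls and 138 ± 8.43 over RIC_hEV; only ctr_hEV 1, at 132 FPKM, reached the RIC_hEV range.

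Pdk4, the kinase that turns off pyruvate dehydrogenase and so spares glucose when fat is burned, was the most variable member, with a coefficient of variation of 69.2%. It was singled out after its values were seen and measured 25.8, 19.5, 26.4 and 126 FPKM across ctr_hEV 1 to 4, against 82.4, 31.6, 95.5 and 49.7 across RIC_hEV 1 to 4. Library ctr_hEV 4 was the highest of all 8, and the other 3 controls lay below every RIC_hEV library. With all libraries the relative difference was 0.81 (0.70 as fitted, 95% interval -0.48 to 1.88, limma adjusted p = 0.509).

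Library ctr_hEV 4 set the overlap of several members. Without it, the groups did not overlap in 8 members (22.9%), all higher in RIC_hEV: Slc22a5, Acsl1, Mlycd, Acadl, Hadh, Eci1, Ppargc1a and Pdk4. The share among all tested genes was then 3.53% in that direction and 25.1% in either. No member passed without ctr_hEV 4 (lowest limma adjusted p = 0.0663), where 178 tested genes did, 1.58% of all, 41 of them higher (0.364%). At an unadjusted p under 0.05 stood 8 members, all higher, where 4.38% of tested genes were higher. For Pdk4 the relative difference went from 0.81 to 1.44 (0.53 without ctr_hEV 2 instead) and for Acsl1 from 0.42 to 0.70. In the summed heat-shock markers, ctr_hEV 4 was likewise the highest control (934 FPKM, against 595 to 776 in the other 3). It was the highest control for Hspa1b, Hspb1, Hspa8, Hsph1, Hspd1 and Hspe1. For Hspa1a, Hsp90aa1 and Dnajb1 the highest control was ctr_hEV 2. The part of heat shock in the values of the members was not tested.

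**Figure D4:**
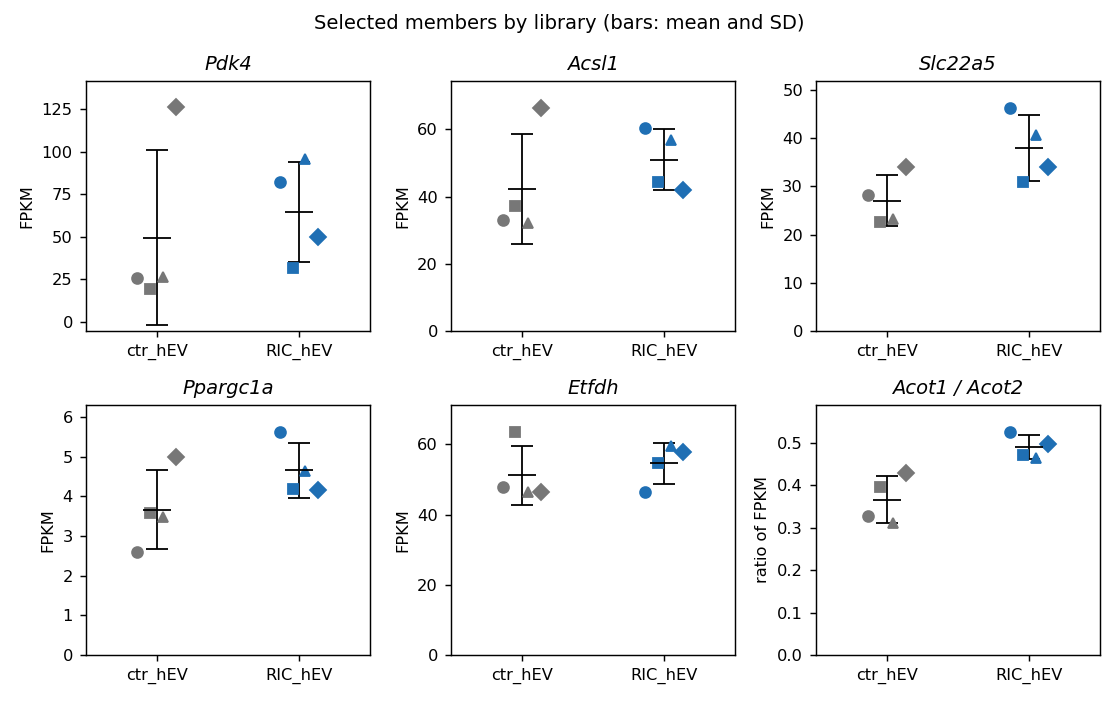
FPKM of 5 members and the ratio of Acot1 to Acot2 in each library; symbols give the replicate number (circle 1, square 2, triangle 3, diamond 4), and bars the mean and SD of 4 libraries. The diamond of ctr_hEV lies at or above most RIC_hEV values in Pdk4, Acsl1 and Ppargc1a, the square of ctr_hEV stands alone in Etfdh, and the ratio does not overlap.

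The role groups were compared through the median deviation of their members in each library, taken against the same median over all tested genes. For all 35 members this score was -0.31, -0.019, -0.27 and -0.022 in ctr_hEV 1 to 4 and 0.20, 0.097, 0.23 and 0.078 in RIC_hEV 1 to 4. Libraries ctr_hEV 1 and ctr_hEV 3 had clearly the lowest scores, and ctr_hEV 2 and ctr_hEV 4 lay close under the RIC_hEV libraries. A low score is low relative to the other genes of that library, not low in FPKM alone. Library ctr_hEV 1 was the highest of all in 44.7% of tested genes, against 5.39% to 13.3% for the others. In FPKM it was the highest control in 12 members and the lowest in 8. The part of this background in its score was not tested. The groups did not overlap for the carnitine shuttle (-0.29 to -0.055 and 0.011 to 0.33) or the spiral (-0.26 to 0.0020 and 0.053 to 0.19). They overlapped for acyl-CoA handling, the unsaturated fatty acid steps, electron transfer, ketone synthesis and the regulators. Since the members were chosen with earlier results known, these scores are given without a test, and a difference between roles was not tested.

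The 2 control libraries with the lowest scores were those with the highest macrophage, fibroblast and cholangiocyte marker sums, and the part of these in the scores was not tested. Without both, the relative median of the members went from 0.28 to 0.13, and 28 of 35 members were higher as fitted, where 42.7% of tested genes were. The medians of the carnitine shuttle and the spiral were then 0.23 and 0.13. That of acyl-CoA handling was 0.067, that of electron transfer 0.026, that of the unsaturated fatty acid steps 0.13, that of ketone synthesis 0.11 and that of the regulators 0.18. No member passed (limma), where 8 of all tested genes did (0.071%). The groups then did not overlap in 6 members (Cpt2, Mlycd, Acadl, Acads, Etfb and Creb3l3), with 5.99% of tested genes higher without overlap and 14% separated in either direction.

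**Figure D5:**
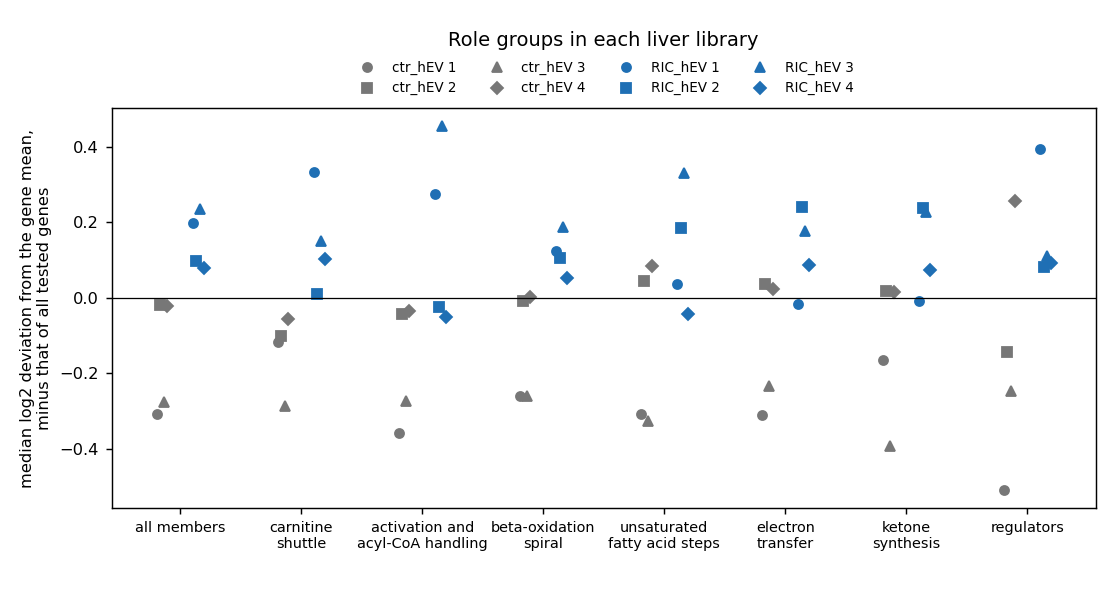
Median log2 deviation of the members of each role group from their gene means in each library, minus that of all tested genes; grey symbols are ctr_hEV and blue symbols RIC_hEV, with the symbol shape giving the replicate number. In every role group ctr_hEV 1 and ctr_hEV 3 are the lowest 2 libraries, and blue and grey do not overlap for all members, the carnitine shuttle and the spiral.

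Members differed in which library was highest within a group. Among the controls, ctr_hEV 1 was highest in 12 members, including Cpt1a, Cpt2, Crat, Acads, Hadha and Bdh1, and lowest in 8, including Fabp1, Vnn1, Acadm, Etfa and Ppara. Library ctr_hEV 2 was highest in 14, including Fabp1, Acadl, Acadm, Hadhb and Acaa2, and ctr_hEV 3 was highest in 0 and lowest in 17. Among the RIC_hEV libraries, RIC_hEV 3 was highest in 17, including Fabp1, Acadm, Hadhb, Acaa2 and Acat1. Library RIC_hEV 1 was highest in 10, including Cpt1a, Cpt2, Crat, Slc22a5 and Hadha. Thus Cpt1a, Cpt2, Crat, Hadha, Etfb and Creb3l3 peaked in replicate 1 of both groups, and Slc25a20, Fabp1, Vnn1, Acadm, Acad11, Hadhb, Acaa2, Eci2, Decr1, Etfdh and Acat1 in ctr_hEV 2 and RIC_hEV 3. The labels do not say whether equal numbers in both groups belong together.

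Of 62 further genes of the pathway, 61 were in the table and 50 were tested. As fitted, 31 were higher and 19 lower, none past the threshold (limma). Unadjusted p (limma) was under 0.05 in 11 of them, 7 higher and 4 lower. At that level, 2.64% of all tested genes were higher and 11.4% lower. The median of these pathway genes was 0.18 relative (0.073 as fitted). The groups did not overlap in 5 of them, 3 higher and 2 lower, where 1.31% of all tested genes were higher and 4.56% lower without overlap. Slc27a2, a very long-chain acyl-CoA synthetase and fatty acid transporter, had a mean of 328 ± 48.9 FPKM over the controls and 435 ± 23.7 over RIC_hEV, a relative difference of 0.53 (0.42 as fitted, SE 0.12, limma adjusted p = 0.331). Etfbkmt, which methylates the flavoprotein subunit Etfb, had a mean of 7.15 ± 1.75 FPKM over the controls and 11.5 ± 1.78 over RIC_hEV (0.74 relative, 0.63 as fitted, SE 0.17, limma adjusted p = 0.331). Hsd17b10, a mitochondrial dehydrogenase of short and branched chains, had a mean of 73.6 ± 14.6 FPKM over the controls and 92.2 ± 7.05 over RIC_hEV (0.45 relative, 0.34 as fitted, SE 0.15, limma adjusted p = 0.354). Lower without overlap were Pparg, the PPAR of fat storage, with a mean of 8.33 ± 1.98 FPKM over the controls and 5.16 ± 0.678 over RIC_hEV (-0.47 relative, -0.58 as fitted, SE 0.16, limma adjusted p = 0.331), and the deacetylase Sirt1, with a mean of 2.96 ± 0.391 FPKM over the controls and 2.47 ± 0.0734 over RIC_hEV (-0.074 relative, -0.18 as fitted, SE 0.10, limma adjusted p = 0.399).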

How the data were processed

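Liver RNA (8 samples) was isolated by Trizol, and libraries followed a VAHTS kit for Illumina, per the labels' protocols. Per the submitters' processing notes, FastQC 0.11.9, Trimmomatic 0.38, HISAT2 2.2.1, HTSeq 0.13.5, R 3.4.1 and DESeq2 1.18.1 were used with build mm10. The deposited values are FPKM by the authors, 1 column per library; annotation, gene lengths and strandedness: not given in the sources used here. Of 55335 rows, 3225 without a symbol were left out, and of 80 symbols on several rows the highest was kept. Depth was estimated from FPKM times exon length (GENCODE M21) of low genes; 9.90% to 15.9% of low values lay within 0.02 of a whole step, so no count model was used.

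Values were taken as log2(FPKM + 1), and genes whose mean reached 1 FPKM were fitted in limma 3.58.1 (R 4.3.3) with a mean-variance trend, two-sided, with Benjamini-Hochberg adjustment over 11268 genes. A log2 change on this scale understates changes of low genes. No member was under the filter, so the permutation test planned for such members was not needed. The fitting script was tested on simulated data. Alternatives were another pseudocount (0.1), no filter, median centring, quantile normalization, a TPM scale, a replicate block and left-out libraries. All members may be named. Some results on other genes of the pathway are not reported here. Full values are given for members without overlap, for the lowest p of each role, and for Cpt1a, Ppara, Hadha, Etfdh, Bdh1 and Acat1, and for others singled out after their values were seen (Pdk4, Acsl1, Acot2, Acads, Hadhb and Etfa). Members, lists and tests were chosen with earlier results of these data known. Marker lists for hepatocytes, macrophages, stellate cells and fibroblasts, endothelial cells, cholangiocytes, neutrophils, B and plasma cells, T and NK cells, adipocytes, muscle, pancreas and red blood cells, and 2 lists on RNA quality, were summed per library. In ctr_hEV and RIC_hEV the sums not given elsewhere were 81.9 to 100.1 and 77.8 to 110.0 FPKM (endothelial), 4.51 to 7.20 and 5.78 to 7.03 (T and NK), 0 to 0.0762 and 0.00814 to 0.540 (adipocyte), 0.00618 to 0.0506 and 0.00518 to 0.325 (muscle), 2.90 to 3.38 and 2.62 to 3.24 (pancreas), 83.4 to 605 and 152 to 164 (red blood cell), and 55045 to 72723 and 68553 to 74725 (mitochondrially encoded).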

Additional observations from a re-analysis of the deposited data

Results flagged for a closer look

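In 3 members a single control library lay far from the other 3 by Dixon's test, in which the gap to the nearest library is set against the whole range of the group and compared with the 95% critical value for 4 libraries. For Pdk4 the gap of ctr_hEV 4 was 0.935 of the control range, for Acsl1 the gap of ctr_hEV 4 was 0.851, and for Etfdh the gap of ctr_hEV 2 was 0.926. Chance flags about 1 in 20 groups, and 70 groups of 4 were examined. Pdk4 without ctr_hEV 4 would compare controls between 19.5 and 26.4 FPKM with RIC_hEV libraries between 31.6 and 95.5.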

How the results depend on the processing

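No member passed the adjusted threshold in limma under any of the 15 alternatives run. Between 32 (quantile normalization) and 35 members lay above the median of all tested genes. The number of members without overlap depended on the setting, and the cause was not tested. From 2 it went to 8 with per-library median centring, 1 on a TPM scale (Hadh), 6 without ctr_hEV 1 and ctr_hEV 3, and 2 to 8 with each library left out in turn. With quantile normalization it stayed at 2, with Mlycd and Hadh in place of Mlycd and Acadl. The relative median of all members went from 0.28 to 0.14 with quantile normalization and 0.13 without ctr_hEV 1 and ctr_hEV 3, that of the spiral from 0.24 to 0.10 and 0.13. Quantile normalization also took the medians of ketone synthesis from 0.26 to 0.11, of the unsaturated fatty acid steps from 0.28 to 0.14, of electron transfer from 0.22 to 0.11 and of acyl-CoA handling from 0.32 to 0.20. Without a filter the spiral was at 0.16 and electron transfer at 0.13. Without these 2 libraries the medians of acyl-CoA handling (0.067) and electron transfer (0.026) also shrank, as did those of the unsaturated fatty acid steps (0.13), ketone synthesis (0.11) and the regulators (0.18). Leaving out each library in turn kept the member median between 0.23 and 0.32, and that of electron transfer between 0.14 and 0.30. Of the single-member values under alternatives, 516 kept their sign and their side of the threshold and 9 turned, namely Ppara (-0.045 without a filter, -0.025 with quantile normalization, -0.15 without ctr_hEV 1 and ctr_hEV 3, and -0.070 to 0.11 with a library left out), Acsl5 (-0.0043 without a filter, -0.028 with quantile normalization), Cpt1a (-0.013 with quantile normalization) and Acot13 (-0.0070 without ctr_hEV 1 and ctr_hEV 3).

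With the replicate number as a block, 0 members passed (lowest adjusted p = 0.461), 2 members had groups that did not overlap, the member median was 0.28, and 3 of all tested genes passed instead of 4. The labels do not say whether same-numbered libraries belong together. Deviations of same-numbered libraries correlated at -0.23 to 0.12, and 1 of 4 numbers had its best partner in its own number. So few correlations cannot settle whether the libraries are paired. Depth was only roughly estimated, at 19300000 fragments or more per library, and 4 libraries a group limit the precision. Fitted 95% intervals of single members were as wide as -0.48 to 1.88 (Pdk4).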

Other observations

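Further genes around fat oxidation were singled out after their values were seen, and none of them passed. Lpin1, a phosphatidate phosphatase that also acts as a coactivator of PPAR alpha, measured 3.75, 4.81, 5.84 and 17.02 FPKM across ctr_hEV 1 to 4, against 25.8, 17.2, 11.7 and 14.2 across RIC_hEV 1 to 4 (relative log2 difference 1.31, 1.20 as fitted, SE 0.38, limma adjusted p = 0.334). Library ctr_hEV 4 lay inside the RIC_hEV range and the other 3 controls below it. Klf15, a transcription factor of the fasting liver, measured 40.1, 46.7, 56.5 and 60.3 FPKM across ctr_hEV 1 to 4, against 68.4, 79.1, 56.4 and 71.4 across RIC_hEV 1 to 4, with ctr_hEV 3 and ctr_hEV 4 level with RIC_hEV 3 or above it (relative difference 0.55, 0.43 as fitted, SE 0.15, limma adjusted p = 0.352). Acacb, which makes the malonyl-CoA that inhibits Cpt1a, measured 2.81, 2.91, 1.64 and 4.05 FPKM across ctr_hEV 1 to 4, against 7.56, 3.46, 4.61 and 5.02 across RIC_hEV 1 to 4 (relative difference 0.79, 0.67 as fitted, SE 0.22, limma adjusted p = 0.351), so that the maker and the remover of malonyl-CoA (Acacb and Mlycd) were both higher in mean in RIC_hEV.

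Some genes of acyl-group handling and ketone body transport lay the other way, where 8227 of all 11268 tested genes were lower as fitted. Crot, the carnitine octanoyltransferase of peroxisomes, measured 145, 191, 164 and 112 FPKM across ctr_hEV 1 to 4, against 99.7, 124, 132 and 94.1 across RIC_hEV 1 to 4 (relative difference -0.31, -0.42 as fitted, SE 0.17, limma adjusted p = 0.354). The mitochondrial thioesterase Acot9 measured 9.23, 7.37, 7.88 and 5.33 FPKM across ctr_hEV 1 to 4, against 4.12, 5.38, 6.17 and 5.14 across RIC_hEV 1 to 4 (relative difference -0.33, -0.44 as fitted, SE 0.16, limma adjusted p = 0.354), and the transporter Slc16a6, linked to ketone body export, measured 3.29, 2.65, 2.51 and 1.87 FPKM across ctr_hEV 1 to 4, against 2.17, 1.22, 1.59 and 2.08 across RIC_hEV 1 to 4 (relative difference -0.26, -0.37 as fitted, SE 0.15, limma adjusted p = 0.354).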
